A study of Mus musculus with 18 samples.

Results

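The potassium channel genes of mouse oligodendrocyte progenitor cells (OPCs) were examined across differentiation and across the loss of the transcription factor THAP1. They were taken as the protein-coding genes whose symbol begins with Kcn, with their coding transcripts summed by symbol, which gave 94 genes of 22305. Of these, 15 encode inward rectifiers, 40 voltage-gated subunits, 12 calcium-activated channels or their partners, 14 two-pore channels and 13 auxiliary subunits. RNA was measured in 18 libraries from clonal OPC lines derived from primary neural stem cells. The 3 control clones were D7, D3 and E8, and the 3 Thap1 null clones were 3F, D6 and 7F. Each clone gave 1 library as OPCs in growth medium with PDGF-AA and 1 library after 2 and after 4 days (DIV2 and DIV4) in differentiation medium with thyroid hormone. The labels do not say how the null allele was made or whether the clones share a donor animal, so the error is the spread between clonal lines.

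Potassium channels set the resting potential of glia and carry potassium out of or into the cell. As background, OPCs are known for voltage-gated delayed rectifier and A-type currents, which shrink as the cells mature, while inward rectifiers and two-pore channels hold the potential of oligodendrocytes and take up potassium released by active axons. Inward rectifiers pass current more easily into the cell, voltage-gated channels open on depolarization, calcium-activated channels follow intracellular calcium, and two-pore channels leak at rest.

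Levels are given as rescaled TPM. TPM, a share of the transcripts in a library, is corrected for transcript length, so levels of different genes can be compared. Rescaling divided each library by a median-of-ratios factor, because a few noncoding features filled some libraries. Gm26924, Gm15662 and mmu-mir-6236 together took 64.8% to 88.0% of the deposited TPM of control OPCs and 34.8% of the null clone D6 as OPCs, but 0.359% to 3.17% elsewhere. On the deposited scale the median gene rose by 1.99 on the log2 scale from control OPC to DIV2 and stood 1.49 higher in null than in control OPCs, so falls from the control OPC stage are the results that depend most on the scale. Sequencing depth is unknown, since TPM keeps none. Coding Thap1 transcripts lay between 1.89 and 4.47 rescaled TPM in control libraries and between 0.196 and 0.771 in null libraries. The OPC marker Pdgfra was at 73.0 to 106 rescaled TPM at the OPC stage, 9 of 10 listed OPC markers were in the table and all 9 reached 1 in every OPC library. The summed level of 10 oligodendrocyte markers went from 118 to 664 in OPC libraries to 1947 to 12270 at DIV4.

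Few channel genes reached appreciable levels. A mean of at least 1 rescaled TPM over the 18 libraries was required for testing, and 20 of the 94 genes passed: 4 inward rectifier, 8 voltage-gated, 2 calcium-activated, 2 two-pore and 4 auxiliary genes. A gene could pass through 1 high group alone, so the 20 are not a sample of the 94. Kcnu1 (1.08) was just inside the limit, and Kcnk2 (0.838) and Kcnn1 (0.782) were just outside. Values above 0 were listed in every library for 35 of the 94 genes, and Kcng3 was listed at 0 in all libraries. Between 50 and 78 channel genes were above 0 in a library.

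**Figure D1:**
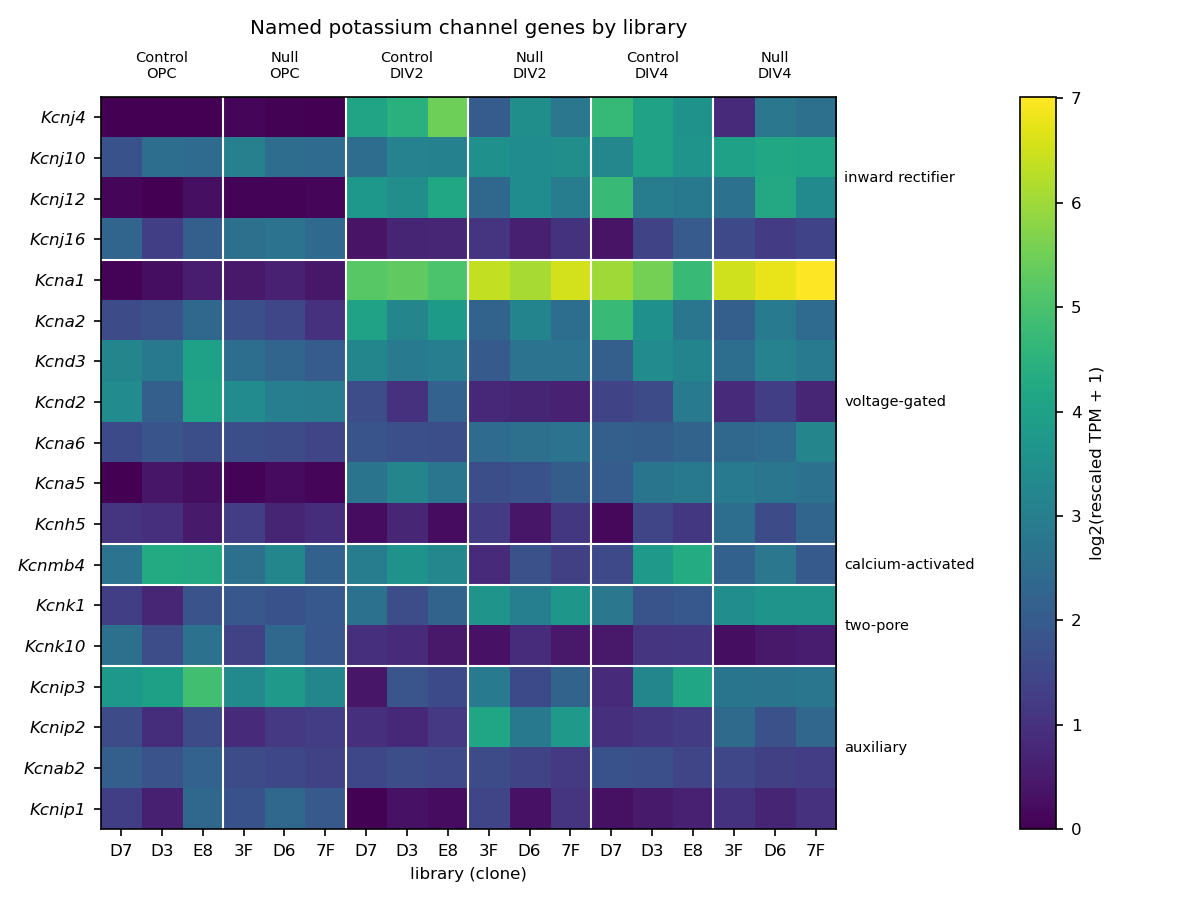
The 18 tested potassium channel genes that the naming rule took (rows, grouped by family) in the 18 libraries (columns, by group and clone), coloured by log2(rescaled TPM + 1). Kcna1, Kcnj4, Kcnj12 and Kcna5 are near 0 in all OPC libraries and at 0.775 rescaled TPM or more in all later ones, while Kcnk10 is darker in every library after the OPC stage.

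A gene was called changed when its adjusted p in limma, over all 10413 genes tested, was under 0.05. All groups share the estimate of the spread. Leaving out a clone or library outside a comparison therefore keeps its log2 change as it was. Only the adjusted p then moves, through the shared spread and the adjustment. From OPC to DIV2 in control, 7 of the 20 tested channel genes rose and 6 fell, where 20.2% of all genes rose and 20.3% fell (40.5% called in either direction). From OPC to DIV4 in control 7 rose and 4 fell, against 19.0% and 18.4% of all genes (37.4% called). In null, 9 rose and 4 fell at DIV2, against 17.2% and 16.7% of all genes (33.8% called), and 10 rose and 4 fell at DIV4, against 19.2% and 19.6% (38.8% called). The median log2 change of the 20 was -0.27 and 0.07 in control and 0.13 and 0.80 in null at DIV2 and DIV4, while the median of all genes stayed between -0.01 and 0.01. Control and null share no OPC library, and 11 of the 13 genes called in each genotype at DIV2 were the same and moved the same way. At DIV4, 9 genes were shared and moved the same way, which is 81.8% of the control calls and 64.3% of the null calls. The same overlap was not computed over all genes, so these shares cannot be read as particular to channel genes.

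Between genotypes, 2 of the 20 genes were called at the OPC stage, both lower in null, where 12.4% of all genes were called (6.32% lower). That share is close to the background. At DIV2, 4 were higher and 2 lower in null, against 2.01% and 1.33% of all genes (3.33% called). At DIV4, 4 were higher and 1 lower, against 2.99% and 2.57% (5.56% called). Kcna1, Kcnk1 and Kcnip2 (higher in null) and Kcnj4 (lower in null) were called at both DIV2 and DIV4, which are different libraries of the same clones. The median log2 difference of the 20 genes was -0.10, -0.13 and -0.03 at OPC, DIV2 and DIV4, beside 0.03, 0.00 and -0.02 for all genes. The change from OPC to DIV2 differed between genotypes for 1 gene, Kcnip2, where 0.413% of all genes were called. The change from OPC to DIV4 differed for 0 of the 20 in limma, with 6 at an unadjusted p under 0.05, where 3.3% of all genes were called. With the clone as a block the DIV4 count was 1, Kcnip2 (adjusted p = 0.0447).

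Groups that did not overlap give a view without a model. Between genotypes the ranges of the clones were separate for 5 of the 20 genes at OPC (2 higher and 3 lower in null; 26.6% of all genes, 13.5% higher and 13.1% lower), 13 at DIV2 (5 higher, 8 lower; 33.5%, 16.4% and 17.1%) and 9 at DIV4 (6 higher, 3 lower; 28.9%, 14.2% and 14.7%). From OPC to DIV2 and DIV4 they were separate for 11 and 10 genes in control (46.2% and 34.1% of all genes) and for 15 and 16 in null (55.9% and 60.3%). In control, 5 genes were separately higher and 6 lower at DIV2 (23.6% and 22.6% of all genes), and 8 higher and 2 lower at DIV4 (17.8% and 16.3%). In null, 9 were higher and 6 lower at DIV2 (28.0% and 27.9%), and 11 higher and 5 lower at DIV4 (30.5% and 29.8%). The clones' own changes from OPC were separate between genotypes for 8 genes at DIV2 (4 in each direction; 24.0% of all genes) and 7 at DIV4 (6 higher, 1 lower in null; 24.1%).

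**Figure D2:**
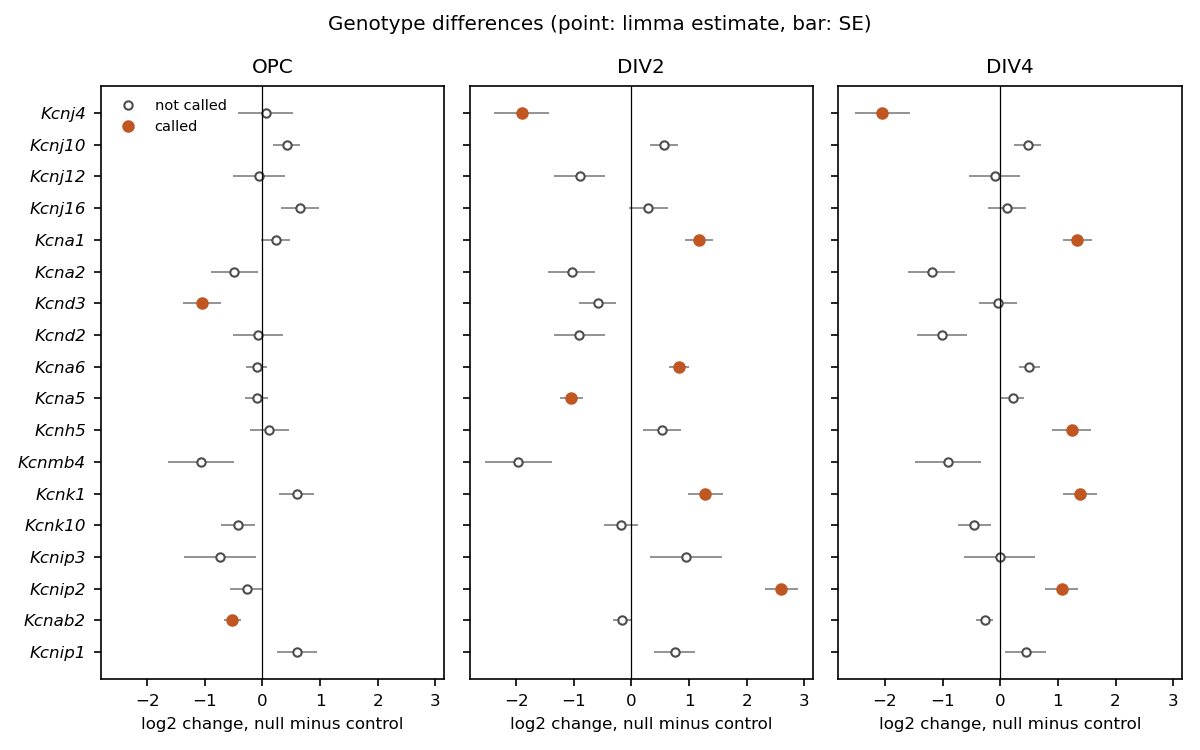
Difference between null and control on the log2(rescaled TPM + 1) scale for the 18 tested genes that the naming rule took at OPC, DIV2 and DIV4 (points: limma estimates, bars: standard errors, filled: called). Kcnj4 lies near -2 at both later stages, Kcna1 and Kcnk1 lie above 1 at both, and Kcnip2 reaches 2.60 at DIV2.

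The 4 genes called between genotypes at both later stages lie on 4 chromosomes (GENCODE M21, GRCm38). Kcna1 (ENSMUSG00000047976) is at chr6:126640397-126646384, Kcnj4 (ENSMUSG00000044216) at chr15:79483714-79505241, Kcnk1 (ENSMUSG00000033998) at chr8:125995170-126030685 and Kcnip2 (ENSMUSG00000025221) at chr19:45791839-45816061. Promoter sequence was at hand for Kcnj4, Kcnk1 and Kcnip2 and is shown because these genes moved in opposite directions in the null clones. Each line gives the 250 bases before the RefSeq gene start (GRCm38.p6, 5′ to 3′ on the gene's strand), and capitals mark matches on either strand to TNNNGGCA, which holds the GGCA core of reported THAP1 sites.

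Kcnj4, chr15:79505242-79505491, minus strand: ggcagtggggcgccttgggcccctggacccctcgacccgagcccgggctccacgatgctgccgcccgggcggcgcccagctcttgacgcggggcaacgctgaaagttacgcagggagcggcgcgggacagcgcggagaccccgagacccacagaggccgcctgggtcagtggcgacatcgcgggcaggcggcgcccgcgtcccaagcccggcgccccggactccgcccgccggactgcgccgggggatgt
Kcnk1, chr8:125994852-125995101, plus strand: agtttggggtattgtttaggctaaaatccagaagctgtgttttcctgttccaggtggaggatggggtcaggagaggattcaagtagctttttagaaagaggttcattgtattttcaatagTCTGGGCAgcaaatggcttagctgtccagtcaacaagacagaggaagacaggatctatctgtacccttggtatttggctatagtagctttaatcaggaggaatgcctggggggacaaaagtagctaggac
Kcnip2, chr19:45816064-45816313, minus strand: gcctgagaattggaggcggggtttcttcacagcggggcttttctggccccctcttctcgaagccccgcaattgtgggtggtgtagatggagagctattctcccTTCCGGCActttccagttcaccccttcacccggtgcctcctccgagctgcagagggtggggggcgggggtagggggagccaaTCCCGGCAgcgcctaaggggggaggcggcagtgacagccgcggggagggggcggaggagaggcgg

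Kcnip2 has 2 matches, Kcnk1 has 1 and Kcnj4 has 0. TNNNGGCA occurs in 36.4% of all 32851 such windows and in 28 of the 94 windows of the 69 channel genes found in the table. AANATGGC, the start of the YY1 consensus, occurs in none of the 3, in 1 of the 94 channel gene windows and in 3.91% of all windows. A match is a description of the letters and not a binding site.

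The inward rectifiers changed composition during differentiation. Kcnj4, a strongly rectifying channel, was listed at 0 in all 3 control OPC libraries and at 0.0737, 0.0228 and 0.0180 rescaled TPM in null 3F, D6 and 7F OPCs. At DIV2 it was at 16.3, 20.8 and 43.2 in control D7, D3 and E8 and at 3.10, 10.3 and 5.87 in null 3F, D6 and 7F. At DIV4 it was at 25.1, 15.4 and 11.2 in control and at 0.775, 5.94 and 5.06 in null. It was therefore nearly silent in OPCs, appeared in every differentiated clone, and every null clone was below every control clone at both later stages. The rise was 4.67 (SE 0.48) at DIV2 and 4.12 at DIV4 in control on the log2(rescaled TPM + 1) scale, and 2.72 and 2.02 in null. The null level was lower by a log2 difference of -1.90 (SE 0.48, adjusted p = 0.0394) at DIV2 and -2.04 (adjusted p = 0.0224) at DIV4, or 4.16-fold and 4.40-fold lower by the means. The DIV2 call was lost without D3, E8, 3F or 7F (adjusted p = 0.0918, 0.189, 0.106 and 0.225), with coding TPM set to 1000000, a pseudocount of 0.1, no filter or all biotypes (adjusted p = 0.0637, 0.089, 0.0871 and 0.0514), and without the null D6 OPC library (0.0553). The DIV4 call was lost without D7, 3F or 7F (adjusted p = 0.0622, 0.101 and 0.103), and the null rise at DIV4 without 7F (0.067).

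Kcnj12, of the same strongly rectifying group, also started near 0, between 0 and 0.229 in all 6 OPC libraries. It reached 12.4, 10.1 and 17.5 at DIV2 in control D7, D3 and E8 and 4.10, 9.68 and 6.81 in null 3F, D6 and 7F. At DIV4 it was at 25.6, 6.80 and 6.09 in control and 5.24, 17.7 and 9.25 in null. The groups did not overlap at DIV2 and overlapped at DIV4, where clone D7 stood far above the other control clones. The rise was called in both genotypes (log2 change 3.67 and 3.37 in control, 2.83 and 3.33 in null), and the genotype difference was not (-0.90 at DIV2, adjusted p = 0.346; -0.10 at DIV4, adjusted p = 0.925). As bulk RNA, these values cannot tell fewer cells that carry a channel from less RNA per cell.

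Kcnj10 encodes the main glial inward rectifier and, with Kcnj16, forms heteromeric channels. Kcnj10 was at 2.42, 4.82 and 4.46 rescaled TPM in control OPCs and at 7.34, 4.69 and 4.46 in null OPCs. It was at 4.66, 7.69 and 7.53 in control and 10.5, 9.72 and 10.1 in null at DIV2, and at 8.48, 15.5 and 11.3 in control and 15.0, 17.2 and 16.6 in null at DIV4. All clones were higher at DIV4 than as OPCs, by 1.38 (SE 0.24, adjusted p = 5.96e-04) in control and 1.44 (adjusted p = 2.99e-04) in null on the log2 scale. At DIV2 the change was 0.65 in control, a call that was lost without D3, E8, 3F, D6 or 7F (adjusted p = 0.0525 to 0.141) or with no filter (0.076), and 0.80 in null, lost without D6 or 7F (0.13 and 0.165) or without the null D6 OPC library (0.066). The null clones lay above the control clones at DIV2, but the difference of 0.57 (SE 0.24) was not called (adjusted p = 0.245). Nor was that of 0.47 at DIV4 (adjusted p = 0.261).

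Kcnj16 went the other way. It was at 3.86, 1.45 and 3.33 in control and 5.02, 5.32 and 4.28 in null OPCs, and at 0.289, 0.641 and 0.675 in control and 1.10, 0.535 and 1.04 in null at DIV2. The fall at DIV2 was -1.29 (SE 0.33, adjusted p = 0.0066) in control, which turned to 0.16 (adjusted p = 0.722) with deposited TPM, and -1.65 (adjusted p = 0.00155) in null. At DIV4 it was at 0.296, 1.74 and 3.06 in control, overlapping the OPC values (change -0.61, adjusted p = 0.158, or 0.0376 without the control D3 OPC library, turning to 1.07 with deposited TPM), and at 1.92, 1.32 and 1.68 in null, a fall of -1.16 (adjusted p = 0.012). That null call was lost without 3F, D6 or 7F (adjusted p = 0.0682, 0.121 and 0.0689), with a pseudocount of 0.1 (0.0513), with coding TPM set to 1000000 (0.133) and with deposited TPM (0.148). In OPCs the genotype difference was not called on the rescaled values, and passed without clone D7 (0.85, adjusted p = 0.0291) and with deposited TPM (1.84, 4.71e-04). The 11 other inward rectifiers stayed under a mean of 0.648 (Kcnj9), and their highest single value was 2.05 (Kcnj2).

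**Figure D3:**
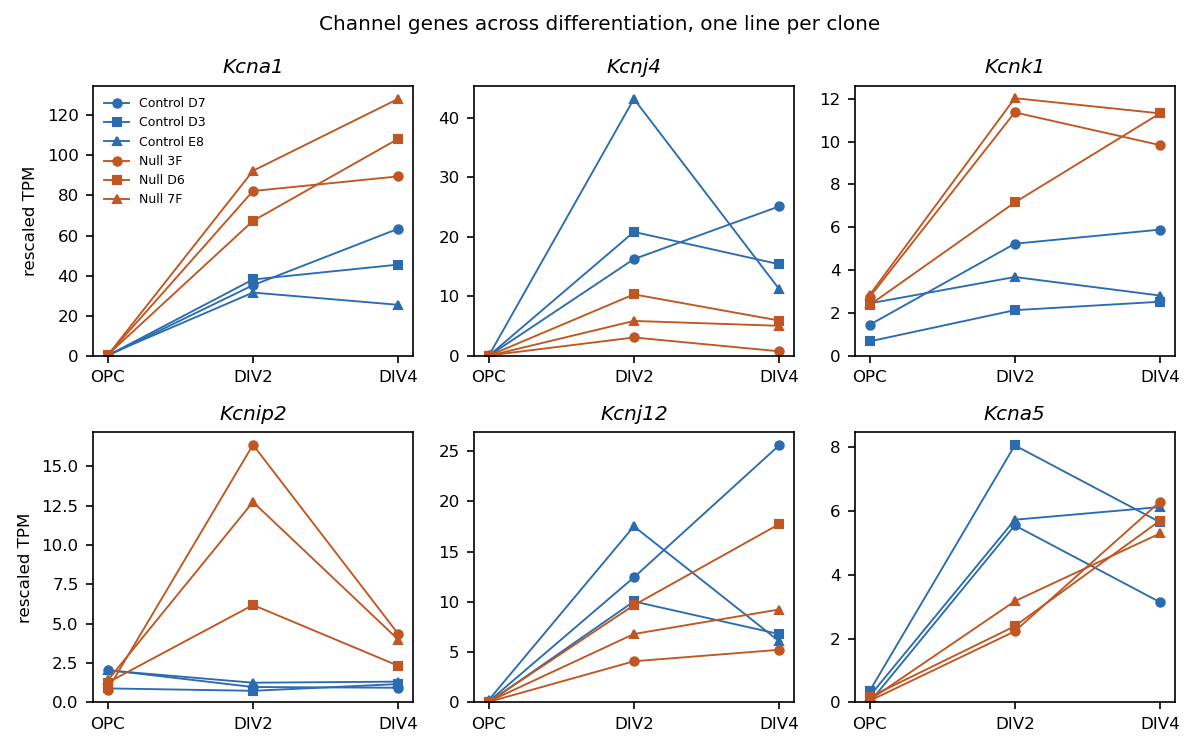
Rescaled TPM of Kcna1, Kcnj4, Kcnk1, Kcnip2, Kcnj12 and Kcna5 at OPC, DIV2 and DIV4, with 1 line per clone (blue: control, orange: null). For Kcna1 and Kcnk1 the null lines lie above the control lines at DIV2 and DIV4, for Kcnj4 below them, and for Kcnip2 the null lines reach 6.19 to 16.4 at DIV2.

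Among voltage-gated genes, Kcna1 had the highest mean of the tested channel genes in control and null at DIV2 and DIV4 (in control E8 at DIV2 Kcnj4 was above it, at 43.2 against 31.6). It encodes a delayed rectifier subunit best known from axons beside the node of Ranvier. It was at 0.0473, 0.206 and 0.475 in control D7, D3 and E8 OPCs and at 0.406, 0.571 and 0.362 in null 3F, D6 and 7F OPCs. At DIV2 it was at 35.3, 38.1 and 31.6 in control and 82.2, 67.3 and 92.3 in null, and at DIV4 at 63.4, 45.5 and 25.5 in control and 89.5, 108 and 128 in null. Every differentiated library was far above every OPC library, and every null clone was above every control clone at both stages. The rise was 4.87 (SE 0.25, adjusted p = 3.4e-08) at DIV2 and 5.13 at DIV4 in control and 5.81 and 6.23 in null on the log2(rescaled TPM + 1) scale. The genotype difference was 1.17 (SE 0.25, adjusted p = 0.0163) at DIV2 and 1.34 (adjusted p = 0.00664) at DIV4, or 2.30-fold and 2.42-fold by the means. The DIV2 call was lost without 3F or 7F (adjusted p = 0.14 and 0.167), with a pseudocount of 0.1 (0.118) and with deposited TPM (0.0946), and the DIV4 call without 7F (0.096) or with a pseudocount of 0.1 (0.0563). The difference in the change from OPC was not called at DIV2 (adjusted p = 0.235) or DIV4 (0.0915), though the DIV4 value passed without D7 (adjusted p = 0.0254) and after quantile normalization (0.0253).

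Kcna1 alone made up 25.0% ± 4.84 of the summed channel RNA in control and 48.3% ± 2.90 in null at DIV2, and 26.2% ± 8.68 and 51.7% ± 3.00 at DIV4 (SD, n = 3 each). In OPCs it made up 0.235% ± 0.151 and 0.660% ± 0.127. These shares do not depend on the scaling of a library. They were not tested.

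Kcna5 and Kcna6 are neighbours of Kcna1 on chromosome 6, all on the minus strand: Kcna5 at chr6:126532551-126535412 ends 104984 bases before Kcna1 begins, and Kcna6 at chr6:126708329-126740674 begins 61944 bases after Kcna1 ends. The 3 neighbours did not follow 1 pattern. Kcna5, linked to OPC proliferation in earlier work, was between 0 and 0.353 in all OPC libraries. At DIV2 it was at 5.55, 8.06 and 5.73 in control and 2.23, 2.39 and 3.17 in null, with no overlap, and at DIV4 at 3.14, 5.65 and 6.13 in control and 6.30, 5.70 and 5.30 in null, with overlap. Its rise was called in all 4 stage comparisons (log2 change 1.71 to 2.65). It was lower in null at DIV2 (-1.04, SE 0.20, adjusted p = 0.00847), and the DIV4 difference of 0.22 was not called (adjusted p = 0.569). The DIV2 call was lost without 3F or 7F (adjusted p = 0.115 and 0.0501), with a pseudocount of 0.1 (0.14), with coding TPM set to 1000000 (0.0511) and with deposited TPM (0.0655).

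The coding transcript of Kcna6 was at 2.56, 2.26 and 2.24 in control and 4.51, 4.97 and 5.38 in null at DIV2, a log2 difference of 0.83 (SE 0.18, adjusted p = 0.0177). This row held only 18.2% of all Kcna6 RNA, the rest lying mainly in a transcript annotated for nonsense-mediated decay. Summed over all its transcripts the difference was 0.38 and was not called (adjusted p = 0.546). Exons of Gm26673 overlap Kcna6 on the other strand and the strand setting of the authors' counting is not given in the sources used here, so Kcna6 is uncertain. Its call was also lost without D3, E8, 3F or D6 (adjusted p = 0.0603, 0.0895, 0.0602 and 0.0595), with coding TPM set to 1000000 (0.0601) and with deposited TPM (0.352). Within null the coding transcript rose from 1.75 to 2.24 in OPCs to 4.05 to 8.14 at DIV4 (log2 change 1.07, adjusted p = 2.98e-04). The control change of 0.45 at DIV4 was not called (adjusted p = 0.0554). It passed with deposited TPM (2.06, adjusted p = 2.62e-06), coding TPM set to 1000000 (1.25, 8.56e-04), all biotypes (0.76, 0.0386), a pseudocount of 0.1 (0.0404), without 7F (0.0194) and without the control D3 OPC library (0.044). The control change of 0.05 at DIV2 passed with deposited TPM (1.59) and with coding TPM set to 1000000 (0.71, adjusted p = 0.0284).

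Kcna2, the usual partner of Kcna1 in axonal channels, was at 2.01, 2.32 and 4.06 in control OPCs and at 2.25, 1.81 and 1.02 in null OPCs. It was at 15.3, 8.10 and 13.2 in control and 3.66, 8.01 and 4.81 in null at DIV2, and at 25.9, 10.4 and 5.74 in control and 3.34, 6.38 and 4.43 in null at DIV4. Kcna2 thus lay lower in the null clones at DIV2, where Kcna1 lay higher, but its own difference was not called (-1.04, adjusted p = 0.216; at DIV4 -1.19, adjusted p = 0.104, or 0.0398 without E8 and 0.0283 with deposited TPM). The rise was called in control at DIV2 and DIV4 (1.79 and 1.78, the latter lost without D7, adjusted p = 0.0577). In null it was called at DIV2 (1.24), a call lost without 3F, D6 or 7F (adjusted p = 0.0576, 0.191 and 0.192), without the null D6 OPC library (0.061) or with no filter (0.0658). The null change of 1.08 at DIV4 missed the threshold (adjusted p = 0.0503) and passed with the clone as a block (0.0458), without D7 or E8 (0.0141 and 0.0286) and without the control E8 OPC library (0.0475). It also passed with deposited TPM (0.00217), coding TPM set to 1000000 (1.79, adjusted p = 0.00345), quantile normalization (0.0396), a pseudocount of 0.1 (0.0267) and a mean of at least 5 (0.0472).

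Kcnd2 and Kcnd3 encode the pore of A-type channels, a current typical of OPCs. Kcnd2 was at 9.51, 3.36 and 16.2 in control and 9.48, 7.03 and 6.92 in null OPCs, and at 2.18, 1.0 and 3.58 in control and 0.733, 0.653 and 0.570 in null at DIV2. At DIV4 it was at 1.70, 2.06 and 6.29 in control and 0.791, 1.45 and 0.690 in null. In null it fell with no overlap, by -2.40 (SE 0.44, adjusted p = 8.15e-04) and -2.16 (adjusted p = 0.00127), and both calls held in all 16 alternatives. In control the changes of -1.58 (adjusted p = 0.0103) and -1.23 (adjusted p = 0.0383) overlapped and turned to 0.55 and 0.99 with deposited TPM. The control DIV2 call was lost without D7 (adjusted p = 0.0584), without the control E8 OPC library (0.0564) or with coding TPM set to 1000000 (0.0542). The control DIV4 call was lost without D7, 3F, D6 or 7F (adjusted p = 0.276, 0.071, 0.069 and 0.0751), without the control E8 OPC library (0.183), and with coding TPM set to 1000000, a pseudocount of 0.1 or no filter (0.235, 0.05 and 0.077).

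The stage changes of Kcnd3 (-0.31 and -0.46 in control, 0.15 and 0.55 in null) were not called on the rescaled values, but control DIV4 passed without D3 (-0.97, adjusted p = 0.0489), null DIV4 with coding TPM set to 1000000 (1.06, 0.0319) and both control changes with deposited TPM, in the other direction (1.99 and 1.88). It was at 8.19, 6.08 and 15.2 in control and 4.82, 3.92 and 3.13 in null OPCs, a log2 difference of -1.05 (SE 0.33, adjusted p = 0.0484). With the clone as a block the adjusted p was 0.053, and with deposited TPM the difference turned to 0.69 (adjusted p = 0.128). The call was also lost without E8, 3F, D6 or 7F (adjusted p = 0.223, 0.0799, 0.136 and 0.248), without the E8 or D6 OPC library (0.188 and 0.0999), with coding TPM set to 1000000 (0.147) and with no filter (0.0819). Kcnd3os exons overlap it on the other strand.

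Kcnh5, of the ether-a-go-go group, was low until DIV4, when it was at 0.112, 1.74 and 1.20 in control and 4.74, 2.11 and 3.93 in null. It was higher in null there (1.24, SE 0.33, adjusted p = 0.0408) and rose within null from OPC to DIV4 (1.19, adjusted p = 0.0106). The genotype call was lost without D7, E8, 3F or 7F (adjusted p = 0.118, 0.0755, 0.23 and 0.254), without the null D6 OPC library (0.0509) and under deposited TPM, coding TPM set to 1000000, a pseudocount of 0.1, no filter and all biotypes (0.165, 0.0911, 0.102, 0.0673 and 0.0542). The null rise was lost without 3F or 7F (0.0609 and 0.108) or with a pseudocount of 0.1 (0.0688). Kcna3, known from OPC work, had a mean of 0.342 and was under the filter. In the limma fit with no filter it fell in control, by -0.60 at DIV2 (adjusted p = 0.0102) and -0.52 at DIV4 (0.0228). The null changes of -0.33 and -0.35 in that fit were not called (adjusted p = 0.147 and 0.113). Its deposited TPM in control was 0.124 to 0.234 in OPCs and 0.181 to 0.362 at DIV2, which is no fall.

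Only 2 of 12 genes of the calcium-activated family were tested. Kcnmb4, the beta subunit of large-conductance channels that is typical of brain, was at 5.35, 18.5 and 17.8 in control D7, D3 and E8 and at 4.99, 8.29 and 3.53 in null 3F, D6 and 7F OPCs. It was at 6.78, 10.9 and 8.58 in control and 0.807, 2.35 and 1.5 in null at DIV2, with no overlap, and at 1.94, 12.7 and 19.0 in control and 3.51, 5.87 and 2.94 in null at DIV4. Clone D7 was the lowest control at each stage. The differences of -1.07, -1.96 (SE 0.58) and -0.91 were not called (adjusted p = 0.233, 0.0844 and 0.385), but without D7 all 3 passed (-1.60, -2.11 and -1.74; adjusted p = 0.00622, 0.00282 and 0.00703). Within null the change of -1.35 at DIV2 was not called (adjusted p = 0.0846) and passed with the clone as a block (0.00875) and without D7 (0.00315). Kcnmb4os1 and Kcnmb4os2 exons overlap Kcnmb4 on the other strand. The pore gene of these channels, Kcnma1, had 1.86 as the highest single untested value of the family. Kcnu1, a related pore gene, stayed between 0.555 and 1.75.

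The two-pore family turned over between its 2 tested genes. Kcnk1, a weakly rectifying leak channel, was at 1.45, 0.678 and 2.45 in control and 2.74, 2.37 and 2.84 in null OPCs. It was at 5.24, 2.14 and 3.68 in control and 11.4, 7.16 and 12.03 in null at DIV2, and at 5.89, 2.53 and 2.82 in control and 9.84, 11.3 and 11.3 in null at DIV4. Every null clone was above every control clone at both later stages. The genotype difference was 1.28 (SE 0.30, adjusted p = 0.0292) at DIV2 and 1.38 (adjusted p = 0.0153) at DIV4, or 2.76-fold and 2.89-fold by the means. The DIV2 call was lost without D3, E8, 3F or 7F (adjusted p = 0.0577, 0.0689, 0.252 and 0.26), with a pseudocount of 0.1 (0.0619) or no filter (0.0606), and the DIV4 call without E8, 3F, D6 or 7F (0.0551, 0.0949, 0.0569 and 0.134). Exons of Gm45875 overlap Kcnk1 on the other strand. The rise from OPC was 1.59 and 1.69 in null, which held in all 17 alternatives, and 0.90 at both stages in control. The call of the control rise was lost at DIV2 and DIV4 without D7 (adjusted p = 0.116 and 0.169), without the control D3 OPC library (0.108 and 0.106) or with no filter (0.0569 and 0.0573). It was also lost without the null clones 3F (0.0537 and 0.0566) or 7F (0.0554 and 0.059), which leave the control estimate as it was.

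Kcnk10, of the mechanically and lipid-gated leak group, was at 5.07, 2.13 and 5.27 in control and 1.59, 4.19 and 2.71 in null OPCs, and between 0.198 and 1.17 in every later library. Its falls did not overlap with the OPC level: -1.54 and -1.41 in control, and -1.30 and -1.44 in null (SE 0.29, adjusted p from 9.36e-04 to 0.00343). With deposited TPM the control falls turned to 0.13 and 0.36, and without 7F the null DIV2 call was lost (adjusted p = 0.0521). Kcnk2, of the same group, was under the filter. It was at 0.696, 0.582 and 0.487 in control OPCs, at 3.17, 1.81 and 2.67 in null OPCs and at 0.169 to 0.795 in all later libraries. In the fit with no filter the OPC difference was 1.14 (SE 0.15, adjusted p = 7.84e-04), with no overlap between the genotypes, and the difference in the change to DIV4 was -1.24 (adjusted p = 0.0146).

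**Figure D4:**
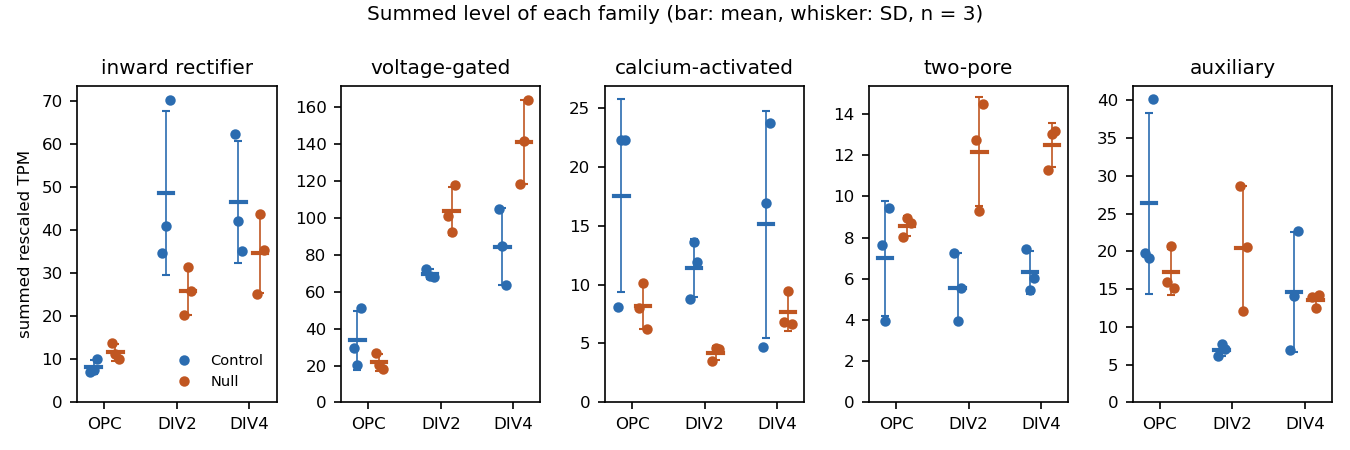
Summed rescaled TPM of the genes of each family in each library at OPC, DIV2 and DIV4 (points: libraries, bars: means, whiskers: SD, n = 3; blue: control, orange: null). Two-pore sums are higher and calcium-activated sums lower in the null clones at DIV2, with no overlap, and the inward rectifier sum grows from under 14 in OPCs to over 20 in every later library.

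Summed by family, inward rectifier RNA went from 8.23 ± 1.63 in control and 11.7 ± 1.96 in null OPCs to 48.7 ± 19.0 and 25.9 ± 5.55 at DIV2 and 46.5 ± 14.2 and 34.8 ± 9.31 at DIV4. Voltage-gated RNA went from 33.6 ± 16.1 and 21.8 ± 4.61 to 69.5 ± 2.52 and 104 ± 13.0 and then 84.4 ± 20.8 and 141 ± 22.8. Two-pore RNA was at 5.57 ± 1.66 in control and 12.2 ± 2.64 in null at DIV2, and at 6.31 ± 1.03 and 12.5 ± 1.07 at DIV4. Calcium-activated RNA was at 11.4 ± 2.47 and 4.20 ± 0.623 at DIV2 and 15.1 ± 9.62 and 7.65 ± 1.59 at DIV4 (SD, n = 3 throughout). Without Kcna1 the voltage-gated sums at DIV2 were 34.5 in control and 22.9 in null, the reverse order. These sums were not tested. In null at DIV2, Kcna1 (80.6) held most of the voltage-gated sum and Kcnk1 (10.2) most of the two-pore sum. The inward rectifier sum there was spread over Kcnj10 (10.1), Kcnj12 (6.86) and Kcnj4 (6.43). In the calcium-activated sum there, Kcnmb4 was at 1.55, beside Kcnn1 at 1.03 and Kcnu1 at 0.962.

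Among auxiliary genes, Kcnip2 had the largest genotype difference of the 20 tested channel genes in the limma fit (at DIV2). It encodes a calcium-binding partner of the A-type channels that raises their surface expression. It was at 2.06, 0.890 and 2.03 in control and 0.819, 1.26 and 1.40 in null OPCs. At DIV2 it was at 0.978, 0.737 and 1.25 in control D7, D3 and E8 and at 16.4, 6.19 and 12.7 in null 3F, D6 and 7F, and at DIV4 at 0.932, 1.17 and 1.32 in control and 4.35, 2.33 and 3.99 in null. The control clones lay between 0.737 and 2.06 at all stages and overlapped the null clones as OPCs, while each null clone was highest at DIV2 and lower again at DIV4. The difference was 2.60 (SE 0.29, adjusted p = 7.1e-05) at DIV2, or 11.9-fold by the means, and 1.07 (adjusted p = 0.0399) at DIV4. The DIV2 call held in all 16 alternatives. The DIV4 call was lost without D7, E8, 3F or 7F (adjusted p = 0.092, 0.0858, 0.165 and 0.254), without the null D6 OPC library (0.0528) and under deposited TPM, no filter and all biotypes (0.104, 0.0729 and 0.0508).

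From OPC to DIV2 Kcnip2 rose by 2.48 (adjusted p = 2.51e-05) in null and changed by -0.39 (adjusted p = 0.292) in control, which turned to 0.87 with deposited TPM. The difference between these changes was 2.87 (SE 0.40, adjusted p = 0.00725), and this call was lost without E8, 3F or 7F (adjusted p = 0.0516, 0.108 and 0.142). At DIV4 the difference between the changes was 1.34 (adjusted p = 0.0783), and it passed with the clone as a block (0.0447), without D3 (0.0396) and without the control D3 OPC library (0.0257). The null rise to DIV4 of 1.06 was lost without 3F or 7F (0.0872 and 0.0671). Kcnip2 has 9 coding transcripts in the table, and the most abundant, ENSMUST00000079431, held 41.7% of its RNA in null at DIV2.

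Kcnip3 and Kcnip1 encode relatives of Kcnip2. Kcnip3 was at 12.3, 14.8 and 28.4 in control and 9.22, 12.8 and 8.36 in null OPCs, the highest auxiliary level at that stage. At DIV2 it was at 0.347, 2.61 and 1.99 in control and 6.41, 2.00 and 3.70 in null, and at DIV4 at 0.803, 8.32 and 16.8 in control and 5.65, 5.53 and 5.72 in null. The control fall at DIV2 was -2.91 (SE 0.62, adjusted p = 0.00206), or -0.61 and not called (adjusted p = 0.395) with deposited TPM. The other stage changes were not called, but with the clone as a block the control change at DIV4 (-1.46, adjusted p = 0.0182) and the null change at DIV2 (-1.22, adjusted p = 0.0421, also 0.0113 without D7) passed.

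Kcnip1 went from 1.44, 0.531 and 4.14 in control and 2.40, 4.03 and 2.92 in null OPCs to 0.0357, 0.277 and 0.178 and to 1.75, 0.269 and 1.13 at DIV2. The fall was called in all 4 stage comparisons (-1.21 and -0.94 in control, -1.06 and -1.10 in null), but each call was lost under 3 or more alternatives, and the control change at DIV4 turned to 0.31 with deposited TPM. Without the control E8 OPC library the control falls were -0.74 (adjusted p = 0.0645) and -0.47 (0.235), and without the null D6 OPC library the null falls were -0.90 (0.109) and -0.95 (0.0852). Leaving out a whole clone ended the control DIV2 call without D7 or E8 (0.0674 and 0.123), the control DIV4 call without any of D7, E8, 3F, D6 or 7F (0.0504 to 0.247) or without the null D6 OPC library (0.0524), the null DIV2 call without D6 or 7F (0.349 and 0.125) and the null DIV4 call without 3F, D6 or 7F (0.0509, 0.165 and 0.105). Without the control E8 OPC library Kcnip1 was higher in null OPCs (1.07, adjusted p = 0.043), as it was with deposited TPM (1.57, 1.16e-04). A pseudocount of 0.1 and coding TPM set to 1000000 each ended 3 of the 4 stage calls, no filter ended 2 (control DIV4 and null DIV2), deposited TPM ended those same calls and control DIV2, and all biotypes ended control DIV4.

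Kcnab2, a cytoplasmic beta subunit of the Kcna channels, moved little. It was at 3.33, 2.47 and 3.62 in control and 2.11, 1.89 and 1.61 in null OPCs, and between 1.28 and 2.38 in later libraries. Its differences in OPCs (-0.52, SE 0.15, adjusted p = 0.0349) and its control changes (-0.47 and -0.40, adjusted p = 0.022 and 0.0476) turned to 0.74, 1.24 and 1.33 with deposited TPM. The OPC call was lost with coding TPM set to 1000000 (adjusted p = 0.402), with all biotypes (0.11) and on leaving out D7, E8, 3F, D6 or 7F (adjusted p = 0.0628 to 0.199), the control E8 OPC library (0.111) or the null D6 OPC library (0.0736). The control DIV2 call was lost without D7 or E8 (0.125 and 0.148) or the control E8 OPC library (0.0786), with quantile normalization (0.0764) and with all biotypes (0.0537), and turned to 0.062 with coding TPM set to 1000000. The control DIV4 call was lost without D7, E8, 3F, D6 or 7F (0.064 to 0.365), the control E8 OPC library (0.148) or the null D6 OPC library (0.0581), with a pseudocount of 0.1 (0.0614), no filter (0.073) or all biotypes (0.135), and turned to 0.17 with coding TPM set to 1000000.

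The clones also differed from one another at DIV4, as the single-library plot shows. Kcnip3, Kcnmb4 and Kcnj16 were lowest in control D7 and highest in control E8, with Kcnip3 spanning 0.803 to 16.8 within that group. Some markers of other cells moved with them. The astrocyte marker Gfap was at 0.178, 103 and 238 in D7, D3 and E8, and Slc1a2 at 0.118, 27.9 and 30.5. The OPC marker Pdgfra was at 7.0, 49.3 and 50.7, whereas the myelin gene Mbp was at 4792, 918 and 660. Cspg4, Ptprz1, Cacng4, Vcan and Olig1 were also lowest in D7, but the other listed OPC markers were not. Sox10 was at 111, 86.5 and 50.6, Gpr17 at 65.8, 87.8 and 63.7, and Olig2 at 48.6, 32.0 and 53.6. The OPC markers in the table summed to 381 to 521 in control and 301 to 319 in null at DIV4. In null DIV4 libraries Gfap was at 78.9 to 135 and Mbp at 84.4 to 560. Other astrocyte markers went both ways against control D3 and E8. Slc1a2 was lower in null (2.62 to 5.65), as were Slc1a3 (3.11 to 7.86, against 25.9 and 73.4 in D3 and E8) and Aqp4 (0.136 to 0.198, against 3.10 and 6.73). Sox9 was lower too (0.144 to 0.418, against 0.792 and 1.70). S100b was higher in null (168 to 217, against 141 and 90.6), as was Fgfr3 (7.72 to 11.1, against 6.85 and 5.64). Aldoc (90.2 to 170, against 71.1 and 138) and Aldh1l1 overlapped. The 10 listed astrocyte markers summed to 97.0 to 588 in control and 413 to 485 in null at DIV4, with 4 and 6 of 10 at 1 or more in every library and Gjb6 at 0 in all null ones. The 10 oligodendrocyte markers summed to 2272 to 12270 in control and 1947 to 2889 in null at DIV4, and to 3475 to 6113 and 3083 to 3465 at DIV2. The part of these differences between cells in the channel results was not tested. Microglial C1qa and C1qb were at 0 in every library, and the pericyte and endothelial list summed to at most 7.40 after the OPC stage.

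**Figure D5:**
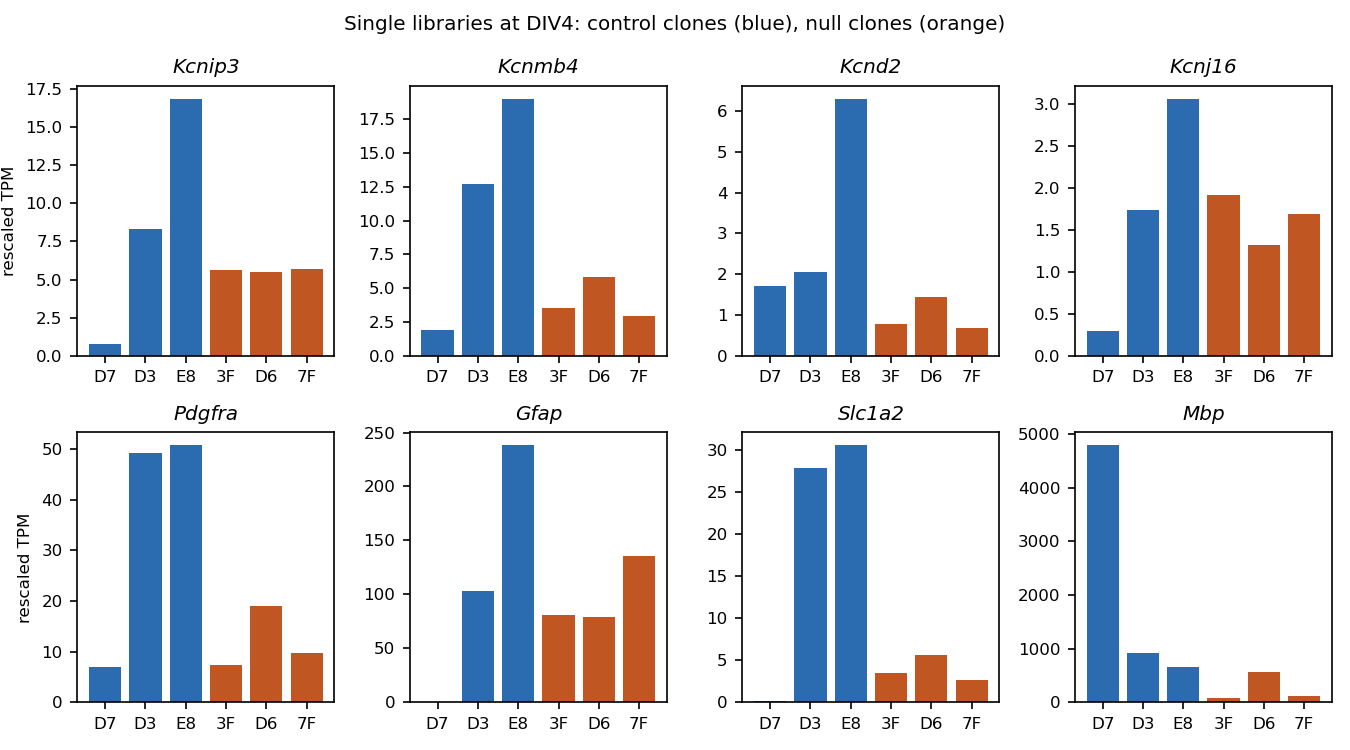
Rescaled TPM in the 6 DIV4 libraries (blue: control clones, orange: null clones) of 4 channel genes (upper row) and of Pdgfra, Gfap, Slc1a2 and Mbp (lower row). Control D7 is the lowest library for Kcnip3, Kcnmb4, Kcnj16, Gfap and Slc1a2 and the highest for Mbp (4792).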

How the data were processed

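Transcript abundance was deposited by the authors as TPM, 1 value per transcript and library for 93666 transcripts, each library summing to 1000000. The submitters' processing notes name STAR, Picard and mm10, without versions. Per the labels' protocols, libraries came from total RNA with a stranded kit and rRNA removal. Depth is unknown, so no counting error can be given, and transcript length (unit not stated by the authors) was not used.

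Protein-coding TPM was summed by gene name and divided by median-of-ratios factors (0.120 to 2.01, from 10372 genes). Genes with a mean of at least 1 (10413) were fitted with limma 3.58.1 (R 4.3.3, eBayes with a mean trend) on log2(rescaled TPM + 1), with 1 mean per group over 18 libraries and Benjamini-Hochberg adjustment within each comparison. Changes on this scale understate those of low genes. Genes named had a mean of at least 5, a genotype or interaction call, one of the 5 largest called rises or falls of a stage comparison, or a place on a fixed list of lineage channels. Others (Kcnu1 and untested extremes) were named after their values were seen. A few genes are not reported here. The members and lists were chosen with earlier results of these data known. Shared 31-base words were under 5% for all 20 tested genes. Clones recur at each stage, and deviations from group means correlated 0.286 within a clone. A fit with the clone as a block is therefore given where it changes a call. The value between clones of a genotype (-0.141) is negative because deviations of 3 clones from their own mean cancel. It is therefore no separate evidence. Alternatives were 3 other scalings, a pseudocount of 0.1, no filter or a mean of 5, all biotypes, the block, leaving out each clone and, chosen after seeing the data, leaving out 3 single OPC libraries.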

Additional observations from a re-analysis of the deposited data

Results flagged for a closer look

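Kcnip2 stood out because its change from OPC to DIV2 differed between genotypes by a test of the difference itself. The null clones changed by 2.87 more than the control clones on the log2(rescaled TPM + 1) scale (SE 0.40, limma adjusted p = 0.00725). The change was higher in each of the 3 null clones than in each of the 3 control clones, and the range of adjusted p over the 16 alternatives was 0.00123 to 0.142.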

How the results depend on the processing

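Counts of called channel genes changed with scaling, filter and the clones included; the cause was not tested. At the OPC stage 2 genes were called between genotypes, and 9 with deposited TPM (all higher in null), 4 with coding TPM set to 1000000, 9 with no filter, 1 with a mean of at least 5, 1 with all biotypes, 1 with the clone as a block, 1 without the control E8 OPC library and 0 without the null D6 OPC library. At DIV2 6 were called, and 3 with deposited TPM, 3 with coding TPM set to 1000000, 2 with a pseudocount of 0.1 and 3 with a mean of at least 5. At DIV4 5 were called, and 3 with a pseudocount of 0.1, with a mean of at least 5, with all biotypes or without the null D6 OPC library. A mean of at least 5 left 9 channel genes to test, of which 7 and 6 were called at DIV2 and DIV4 in control and 6 and 6 in null. For control DIV4 against OPC, 18 were called with deposited TPM (all higher) and 17 with coding TPM set to 1000000. For null DIV4 against OPC, 26 were called with no filter (15 higher, 11 lower). The interaction count was 13 at DIV2 (12 lower) and 9 at DIV4 with deposited TPM, 2 and 2 with coding TPM set to 1000000, 2 and 5 with no filter, 0 at DIV2 with a mean of at least 5, and 1 at DIV4 with quantile normalization, with the clone as a block or without the control D3 OPC library. The other block counts were 6 and 5 between genotypes at DIV2 and DIV4, 13 and 12 in control, 15 and 15 in null and 1 for the DIV2 interaction.

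On leaving out each clone the counts between genotypes ranged from 0 to 3 at OPC, 1 to 7 at DIV2 and 0 to 5 at DIV4. The stage counts ranged from 9 to 12 and 6 to 12 in control and from 9 to 15 and 8 to 15 in null at DIV2 and DIV4, and both interaction counts from 0 to 1.

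Signs turned almost only with deposited TPM, where the control OPC libraries are low. Higher in null OPCs were then Kcna2 (0.72), Kcna6 (0.97), Kcnab2 (0.74), Kcnd2 (1.62), Kcnd3 (0.69) and Kcnk10 (0.93). In control, log2 changes to DIV2 and DIV4 became 1.24 and 1.33 for Kcnab2, 0.55 and 0.99 for Kcnd2, 1.99 and 1.88 for Kcnd3, 0.87 and 1.05 for Kcnip2, 0.16 and 1.07 for Kcnj16, 0.13 and 0.36 for Kcnk10, and 1.91 and 1.90 for Kcnmb4, and 0.31 at DIV4 for Kcnip1. Interactions at DIV2 became -1.06 for Kcnab2, -1.47 for Kcnd3, -1.34 for Kcnj10 and -1.25 for Kcnk10, and at DIV4 -1.15 for Kcnab2 and -1.42 for Kcnj10. With coding TPM set to 1000000, the control changes of Kcnab2 became 0.062 and 0.17. The clone as a block changed, beside those given with the results, no call of a named gene.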

Other observations

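Partners of potassium transport were described from a list of 36 genes, of which 18 were tested. In each of the 4 stage comparisons 7 of the 18 rose and 0 fell in limma, where 17.2% to 20.2% of all genes rose and 16.7% to 20.3% fell. The cotransporter Slc12a2, which carries sodium, potassium and chloride into cells, rose by 2.08 in control and 1.40 in null at DIV4 on the log2(rescaled TPM + 1) scale. Hcn2, a cation channel opened by hyperpolarization, rose by 3.78 and 3.52, from at most 0.661 rescaled TPM in OPCs to at least 9.56 at DIV4. The scaffold Dlg1 and the connexin Gjc3 rose too, Dlg1 by 1.80 and 1.43 and Gjc3 by 1.73 and 1.52. For Gjc3 the control groups overlapped, with clone D3 at 80.6 as OPCs and clone E8 at 65.5 at DIV4.

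Atp1b3, a beta subunit of the sodium pump, was higher in null at DIV2 (37.9 ± 5.91 against 21.6 ± 1.62, SD, n = 3; log2 difference 0.77, adjusted p = 0.0379). The processing alternatives were not run for these partner genes.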
